A study of Mus musculus with 16 samples.

Results

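The cholesterol synthesis pathway was followed in mouse liver through 26 genes: 20 enzymes of the route from acetyl-CoA to cholesterol and its isoprenoid side branch, the transcription factor SREBP2 (Srebf2) with 3 proteins that control it (Scap, Insig1, Insig2), and 2 sterol transport genes (Stard4, Tmem97). They were taken by gene symbol from a table of 40840 genes; all 26 were listed, and all 26 passed the filter on low counts, as did 14484 genes in all. The list is defined by gene function, but it was chosen with earlier results of these data known. Livers came from male C57BL/6J mice of 12 to 16 weeks, kept in constant darkness on a standard diet, wild type (WT) or lacking both cryptochromes in the germ line (Cry1-/-Cry2-/-, CryDKO). All 4 groups had been given oxaliplatin, a platinum drug used against colorectal cancer, by intraperitoneal injection at 12 mg/kg, either at circadian time 8 (CT8), in the subjective day, or at CT16, in the subjective night. The labels give 3 consecutive days of dosing, while the series text also speaks of a single dose, and the time of liver collection is not given in the sources used here. Each group had 4 libraries, and untreated livers were not analysed here, so a difference below is one between treated groups. The labels describe a germ line loss, which would be present in all cells, and no label states that replicates are different mice, so p-values here rest on how far libraries of a group differ, and part of that may be technical.

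Cholesterol is built in the endoplasmic reticulum from acetyl-CoA through mevalonate, isoprenoid diphosphates, squalene and lanosterol. When sterols are low, SCAP carries SREBP2 to the Golgi, where proteases release the part that enters the nucleus and switches on nearly every gene of the pathway; when sterols are high, INSIG proteins hold SCAP and SREBP2 back. The liver is a main site of this synthesis, and cryptochromes are the repressors of the circadian clock, whose output in liver includes sterol and bile acid metabolism.

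Library totals ranged from 18083916 to 29934138 reads. Levels are given as CPM, counts scaled to a common library size and corrected by the trimmed mean of M values, and each difference as a log2 change with its standard error (SE). Cry2 was lower in the libraries labelled CryDKO (log2 -0.74 at CT8, -0.94 at CT16), while Cry1 was higher there (1.04 and 2.15), so the Cry1 counts go against the label and the groups are called by their labels throughout. Which exons the alleles lack is not given in the sources used here. Hepatocyte transcripts were abundant in every library, with Alb between 33147 and 115461 CPM. In bulk liver, fewer cells of a type and less RNA per cell cannot be told apart.

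Promoter sequences are shown for the 4 members with the lowest adjusted p in the comparison that called most of them (Ggps1, Insig2, Scap, Srebf2), for the regulator Insig1, and for Hmgcs1, the last chosen after its sequence was searched because it held the full sterol element. Each is the 250 bases before a transcription start in RefSeq, build GRCm38.p6 (the counts were made on GRCm39), written 5′ to 3′ on the gene's strand. Capitals mark a sterol regulatory element, to which SREBP2 binds (short form TCACNCCA), an NF-Y box (CCAAT), the site of a factor that works beside SREBP2, or an E-box (CACGTG), the site of the clock activators, each on either strand. Ggps1 lies at chr13:14063489-14063738 (minus), Insig2 at chr1:121332590-121332839 (minus, the first of 3 listed starts), Scap at chr9:110333038-110333287 (plus, the first of 2), Srebf2 at chr15:82147019-82147268 (plus), Insig1 at chr5:28071162-28071411 (plus) and Hmgcs1 at chr13:119690101-119690350 (plus).
Ggps1: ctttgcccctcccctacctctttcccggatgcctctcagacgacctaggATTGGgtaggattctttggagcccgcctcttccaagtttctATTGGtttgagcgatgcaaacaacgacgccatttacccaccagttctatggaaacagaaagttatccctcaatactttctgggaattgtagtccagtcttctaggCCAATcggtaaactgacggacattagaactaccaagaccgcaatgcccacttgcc
Insig2: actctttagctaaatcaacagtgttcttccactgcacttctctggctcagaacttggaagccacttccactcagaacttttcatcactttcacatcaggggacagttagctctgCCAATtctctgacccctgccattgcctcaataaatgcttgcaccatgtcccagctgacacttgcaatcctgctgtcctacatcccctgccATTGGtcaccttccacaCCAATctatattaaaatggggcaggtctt
Scap: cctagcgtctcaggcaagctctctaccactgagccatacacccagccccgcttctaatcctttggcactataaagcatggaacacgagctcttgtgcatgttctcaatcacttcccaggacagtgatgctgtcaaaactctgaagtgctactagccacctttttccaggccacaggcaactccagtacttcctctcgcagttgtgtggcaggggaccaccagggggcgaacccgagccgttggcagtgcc
Srebf2: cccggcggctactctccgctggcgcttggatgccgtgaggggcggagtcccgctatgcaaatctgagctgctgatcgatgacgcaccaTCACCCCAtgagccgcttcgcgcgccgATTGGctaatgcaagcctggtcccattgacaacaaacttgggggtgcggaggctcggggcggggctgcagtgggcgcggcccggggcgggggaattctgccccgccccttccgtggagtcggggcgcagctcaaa
Insig1: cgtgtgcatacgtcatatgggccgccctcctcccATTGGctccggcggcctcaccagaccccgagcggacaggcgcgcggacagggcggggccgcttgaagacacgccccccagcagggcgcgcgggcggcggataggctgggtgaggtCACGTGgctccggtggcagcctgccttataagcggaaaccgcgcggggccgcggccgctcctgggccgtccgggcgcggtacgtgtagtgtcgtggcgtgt
Hmgcs1: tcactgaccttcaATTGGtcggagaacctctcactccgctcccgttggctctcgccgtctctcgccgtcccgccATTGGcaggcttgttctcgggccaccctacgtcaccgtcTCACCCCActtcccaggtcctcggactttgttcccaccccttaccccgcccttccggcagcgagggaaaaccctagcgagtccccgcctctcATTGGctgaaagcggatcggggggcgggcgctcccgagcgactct

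Hmgcs1 carried the full element TCACNCCAC at -137 from the RefSeq start, and Srebf2 the short form at -162. The bases after that Hmgcs1 start matched no GENCODE M21 transcript of the gene, so its position relative to the start is uncertain. The same was true of the listed Sc5d and Nsdhl starts, whose windows are counted below. Ggps1 and Insig2 each showed 3 NF-Y boxes and no sterol element in this window. The windows of the other listed Insig2 starts held no NF-Y box, sterol element or E-box. Insig1 held 1 NF-Y box and an E-box at -101. The first Scap window held none of the 3 motifs, and the second Scap start had an E-box at -40. The windows counted were those in the RefSeq table, 250 bases before to 50 after a start, which holds 22 of the 26 members (not Fdps, Fdft1, Sqle or Stard4). CCAAT was found for 19 of 22 members (86.4%), against 42.5% of the 11276 tested genes in the table and 37.4% of all 32851 promoters. The short sterol element was found for 3 of 22 (13.6%; Hmgcs1, Msmo1, Srebf2), against 4.68% of tested genes and 4.36% of all promoters. The full form, which contains the short one, was found for 1 of 22 (4.55%) against 1.54% and 1.24%. The GC box GGGCGG, not marked in capitals, was found for 19 of 22 (86.4%) against 63.9% and 35.7%, and the E-box for 5 of 22 (22.7%; Dhcr7, Hsd17b7, Insig1, Sc5d, Scap) against 11.3% and 7.15%. A gene counted once if any of its windows held the letters, and these matches are descriptions, not measured binding.

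Per kilobase of exon, as annotated in GENCODE M21, Insig1 had the highest mean level of the 26 genes, 120.7 CPM per kb over the 16 libraries. Ebp (97.2), Hmgcs1 (93.0) and Fdps (89.7 CPM per kb) followed. The order differed by group: Insig1 was highest in 3 groups, with Hmgcs1 next in WT_CT8 and WT_CT16 and Ebp next in CryDKO_CT16, while in CryDKO_CT8 Ebp had 104.8 and Insig1 96.3 CPM per kb. The lowest levels per length, in every group, were those of Lss (9.16), Mvd (8.45) and Ggps1 (2.11 CPM per kb). Insig2 had 33.1 CPM per kb, well under Insig1. The SREBP2 gene itself had 13.4 and Scap 16.4 CPM per kb.

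In livers dosed at CT8, 3 of the 4 genes for SREBP2 and its regulators (Insig2, Srebf2, Scap) were higher in the libraries labelled CryDKO than in WT, and 1 of 20 enzymes (Ggps1) passed the test, in the lower direction. Insig2 was 4.95-fold higher, Srebf2 1.66-fold and Scap 1.46-fold higher, and Ggps1, which makes the geranylgeranyl diphosphate used to anchor small GTPases in membranes, was 2.41-fold lower. These 4 of 26 members (15.4%) passed an adjusted p of 0.05 in the quasi-likelihood test of edgeR, adjusted by the Benjamini-Hochberg method over all tested genes. Of all tested genes, 39.0% passed in this comparison, and the members' count is read against that share. With scaling by library size alone, 1 was higher (Insig2) and 4 were lower (Ggps1, Hsd17b7, Sc5d, Stard4), under which the median log2 change of all tested genes was -0.36. The members' median log2 change was -0.05, beside -0.02 over all tested genes, with 12 members above 0 and 14 below. The sign of that median rested on single libraries: it was 0.24 without library 9, 0.11 without library 3 or 4 and 0.07 without library 10, and -0.18 without library 15, -0.22 without library 1 and -0.24 without library 16.

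**Figure D1:**
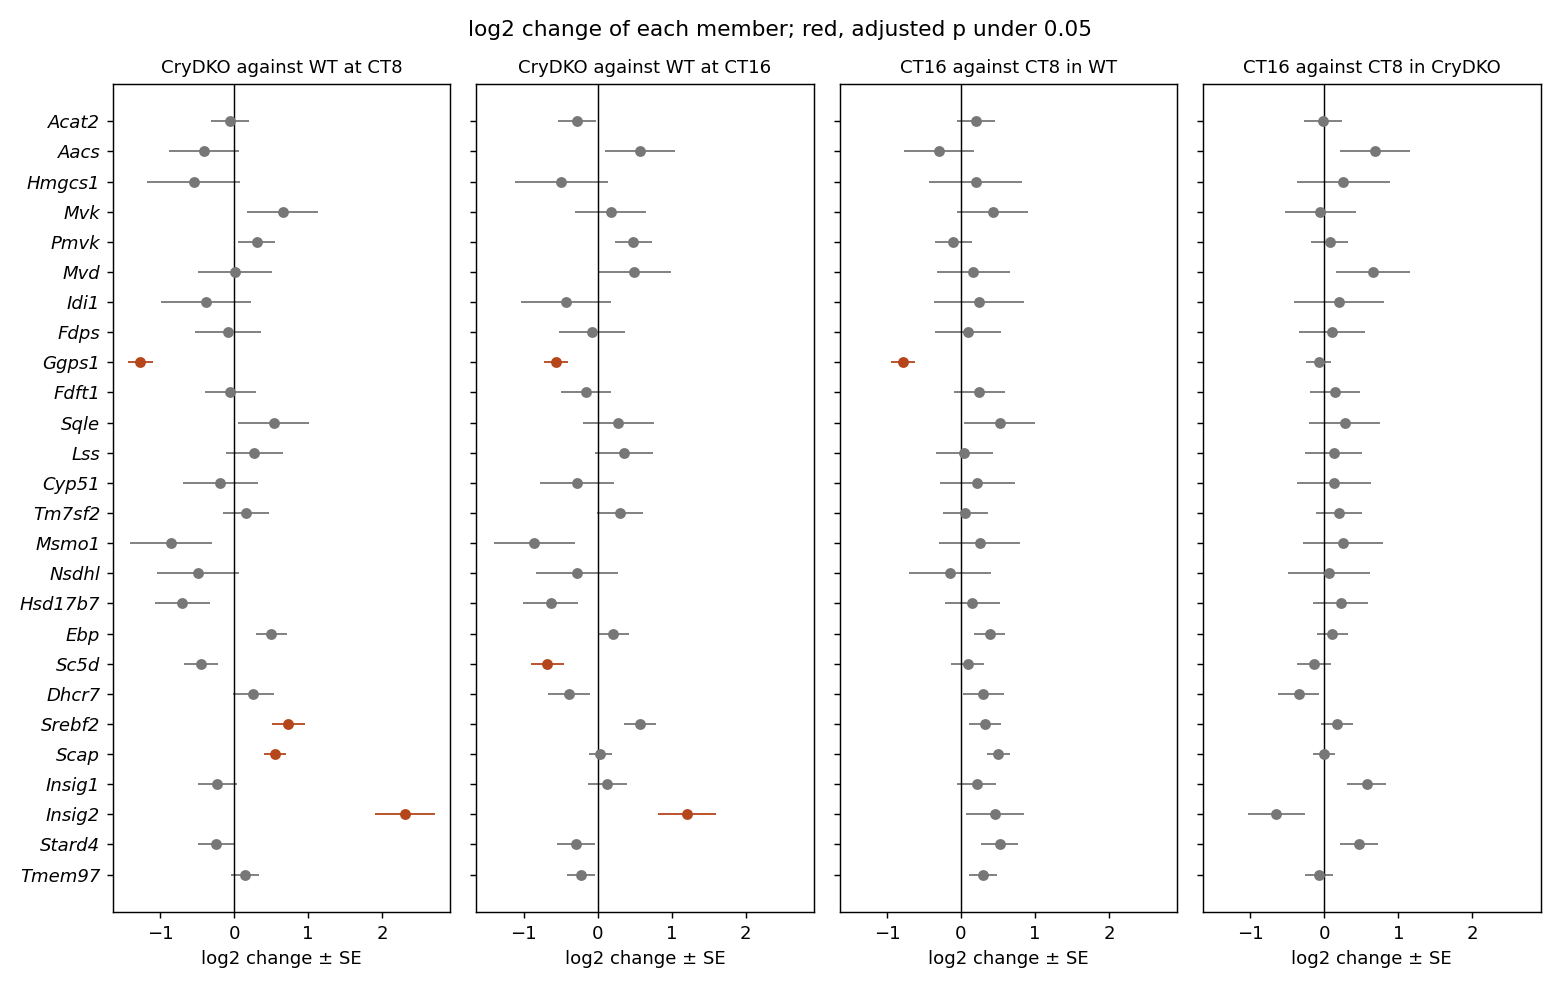
Log2 change (x axis) with its standard error for each of the 26 members (rows, ordered by role) in the 4 comparisons of 2 groups; red marks an adjusted p under 0.05. Insig2, Srebf2 and Scap lie above 0 and Ggps1 below 0 by genotype at CT8, while most enzymes have intervals that span 0.

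Insig2 encodes the INSIG protein whose gene is not a direct SREBP2 target, unlike Insig1. Its level in WT_CT8 libraries 1, 2, 3 and 4 was 55.9, 37.0, 47.1 and 35.8 CPM. In CryDKO_CT8 libraries 9, 10, 15 and 16 it was 432, 143, 136 and 160.1 CPM. The groups did not overlap, and library 9 stood far above the other 3 of its group. This was a log2 change of 2.31 ± 0.41 (SE; edgeR's quasi-likelihood test, Benjamini-Hochberg adjusted p = 0.00076). Without library 9 it was 1.76 (adjusted p = 0.000585).

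Srebf2 encodes SREBP2. It stood at 59.6, 61.6, 77.5 and 68.1 CPM in WT_CT8 libraries 1 to 4, and at 88.1, 63.9, 122 and 169 CPM in CryDKO_CT8 libraries 9, 10, 15 and 16. Library 10 lay within the WT range and the other 3 above it. On the log2 scale Srebf2 rose by 0.73 ± 0.22 (SE; edgeR's quasi-likelihood test, Benjamini-Hochberg adjusted p = 0.0127). The call was lost without library 16 (0.46, adjusted p = 0.0658) and with scaling by library size alone (0.39, adjusted p = 0.159).

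Scap encodes the escort protein of SREBP2. WT_CT8 libraries 1 to 4 had 95.1, 93.2, 88.8 and 88.3 CPM, and CryDKO_CT8 libraries 9, 10, 15 and 16 had 115, 141, 139 and 140.1 CPM. Every CryDKO_CT8 library was above every WT_CT8 library. The log2 change was 0.55 ± 0.15 (SE; edgeR's quasi-likelihood test, Benjamini-Hochberg adjusted p = 0.00837), and it stayed past the threshold without any 1 of the 16 libraries. With scaling by library size alone it was 0.20 (adjusted p = 0.231), or 0.56 relative to the median of all tested genes under that scaling.

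Ggps1 makes geranylgeranyl diphosphate from farnesyl diphosphate, off the line that leads to cholesterol. It was at 16.5, 18.8, 15.2 and 16.2 CPM in WT_CT8 libraries 1 to 4 and at 6.01, 6.51, 7.41 and 7.78 CPM in CryDKO_CT8 libraries 9, 10, 15 and 16. The groups were far apart relative to the spread within each. On the log2 scale the change was -1.27 ± 0.16 (SE; edgeR's quasi-likelihood test, Benjamini-Hochberg adjusted p = 3.47e-05). In the GENCODE M21 annotation 5.44% of Ggps1 exon bases overlap Arid4b on the opposite strand, and with the strand setting not given in the sources used here, reads of the pair cannot be told apart there.

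Values of 3 members did not overlap between genotypes at CT8 (Ggps1, Insig2, Scap), where 39.2% of tested genes did not. Ebp, the sterol isomerase late in the pathway, had the next lowest p. WT_CT8 libraries 1 to 4 had 131, 157, 219 and 177 CPM of it, and CryDKO_CT8 libraries 9, 10, 15 and 16 had 159, 307, 278 and 224 CPM. The ranges overlapped, and the log2 change of 0.50 ± 0.21 (SE) did not pass (edgeR's quasi-likelihood test, Benjamini-Hochberg adjusted p = 0.0639). In the same test it passed without library 9 (0.69, adjusted p = 0.0158) and without library 3 (0.68, adjusted p = 0.0294). It also passed without library 8 (0.52, adjusted p = 0.0495), without library 14 (0.51, adjusted p = 0.0440) and with no low count filter (0.54, adjusted p = 0.0410). Insig1, a direct SREBP2 target that also retains SCAP, was at 349 ± 54.6 CPM in WT_CT8 and 298 ± 83.0 CPM in CryDKO_CT8 (SD, n = 4 each). Its log2 change of -0.23 ± 0.26 (SE) was within the error (edgeR's quasi-likelihood test, Benjamini-Hochberg adjusted p = 0.511).

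**Figure D2:**
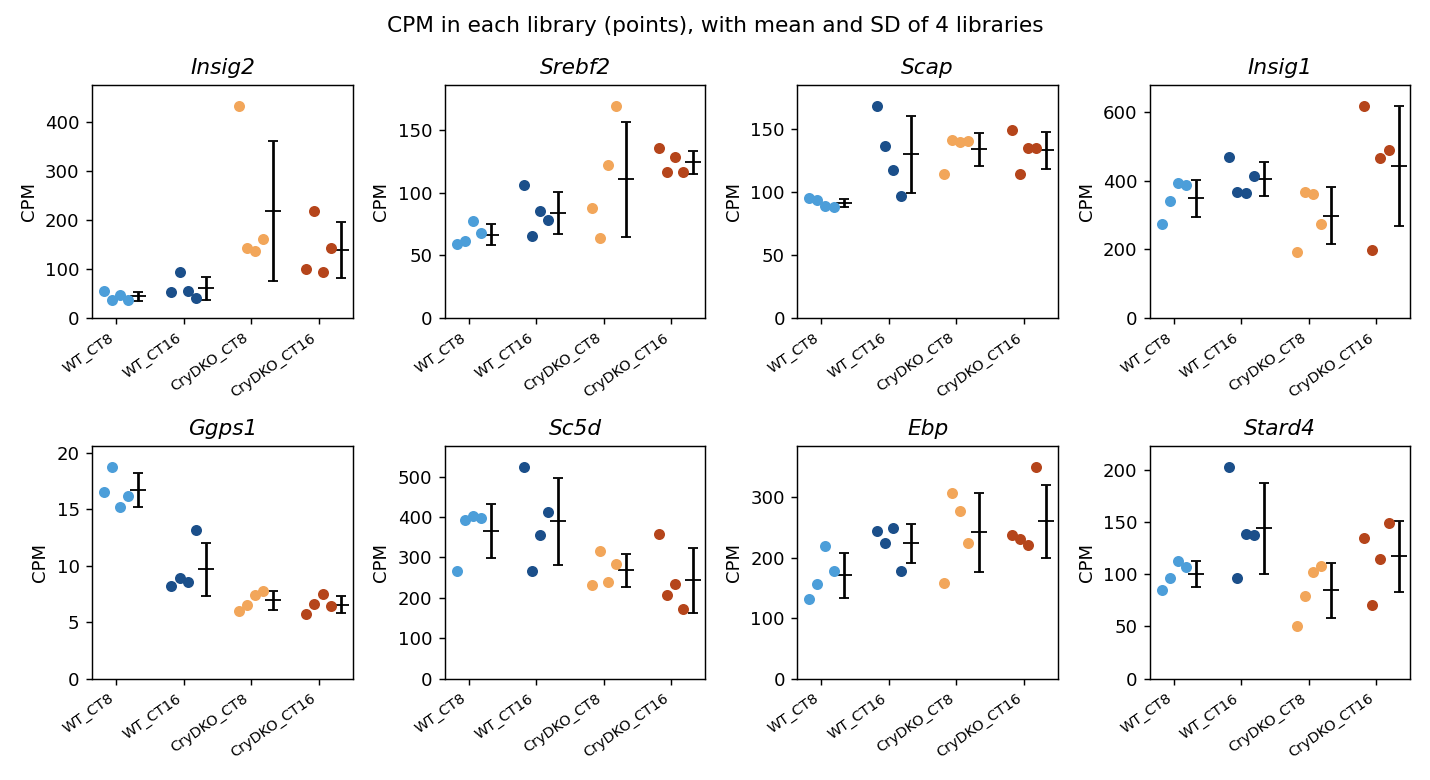
CPM (y axis, from 0) of the 8 members described library by library, with 1 point for each library and the mean and SD of the 4 libraries beside each group. Every library labelled CryDKO has more Insig2 than the highest WT library, and Ggps1 is highest in WT_CT8.

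Of the 20 enzymes, Ggps1 was the 1 whose values did not overlap between genotypes at CT8. The 2 genes for activation of acetyl-CoA and acetoacetate, Acat2 and Aacs, summed to between 124.7 and 211.4 CPM in WT_CT8 and between 83.9 and 200.6 CPM in CryDKO_CT8. The 7 genes from Hmgcs1, which condenses the first committed carbon units, to Fdps and Ggps1 summed to between 428.2 and 1458 CPM in WT_CT8 and between 303.9 and 1459 CPM in CryDKO_CT8, and Ggps1 was the 1 gene of the 7 that passed. The 3 genes that form squalene and close it into lanosterol, Fdft1, Sqle and Lss, summed to between 214.4 and 543.4 CPM and between 204.1 and 717.6 CPM. None of these 3 passed, none had an unadjusted p under 0.05 in edgeR's quasi-likelihood test (0 of 3), and their log2 changes lay between -0.05 and 0.53. Of the 8 genes from lanosterol to cholesterol, 0 passed in edgeR's quasi-likelihood test and 1 had an unadjusted p under 0.05 (Ebp); their changes ranged from -0.85 for Msmo1, a sterol methyl oxidase, to 0.50 for Ebp.

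In livers dosed at CT16, Insig2 was again higher in the libraries labelled CryDKO, 2.31-fold, and Ggps1 was again lower, 1.47-fold. Sc5d, the desaturase that acts near the end of the pathway, was 1.60-fold lower. These were 3 of 26 members (11.5%), where 18.2% of all tested genes passed. With scaling by library size alone, 0 were higher and 2 lower (Ggps1, Sc5d). The members' median log2 change was -0.12, beside -0.01 over all tested genes; it was 0.03 without library 5, -0.06 without library 7 or 12 and -0.31 without library 6. CryDKO_CT8 and CryDKO_CT16 are separate libraries, as are the WT groups, so the 2 genotype comparisons share no sample, although they share the estimate of the spread.

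Insig2 in WT_CT16 libraries 5, 6, 7 and 8 was 52.6, 93.4, 54.0 and 40.9 CPM. In CryDKO_CT16 libraries 11, 12, 13 and 14 it was 100, 218, 94.6 and 143 CPM. The lowest CryDKO library was just above the highest WT library. The log2 change was 1.21 ± 0.39 (SE; edgeR's quasi-likelihood test, Benjamini-Hochberg adjusted p = 0.0472). This call was close to the threshold: it was lost without any 1 of libraries 1, 2, 3, 4, 5, 7, 8, 12, 14 or 16, at log2 changes from 0.90 to 1.21 and adjusted p from 0.0539 to 0.140. It was also lost with no low count filter (1.20, adjusted p = 0.113) and with scaling by library size alone (1.08, adjusted p = 0.0743).

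Ggps1 in WT_CT16 libraries 5 to 8 was 8.17, 8.89, 8.53 and 13.1 CPM, and in CryDKO_CT16 libraries 11 to 14 it was 5.70, 6.63, 7.48 and 6.45 CPM. The groups did not overlap, and library 8 was well above the other 3 WT_CT16 libraries. The log2 change was -0.56 ± 0.16 (SE; edgeR's quasi-likelihood test, Benjamini-Hochberg adjusted p = 0.0233). Without library 8 it was -0.39 (adjusted p = 0.087), without library 11 it was -0.50 (adjusted p = 0.0629), and fitted on these 2 groups alone it was -0.58 (adjusted p = 0.0648).

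Sc5d in WT_CT16 libraries 5 to 8 was 524, 265, 354 and 412 CPM, and in CryDKO_CT16 libraries 11 to 14 it was 358, 206, 234 and 174 CPM. The highest CryDKO value, in library 11, lay within the WT range. Sc5d changed by -0.68 ± 0.23 on the log2 scale (SE; edgeR's quasi-likelihood test, Benjamini-Hochberg adjusted p = 0.043). The call was lost without any 1 of libraries 5, 7, 8, 12, 13 or 14, at changes from -0.50 to -0.72 and adjusted p from 0.058 to 0.142, and when fitted on these 2 groups alone (-0.69, adjusted p = 0.0803). At CT8 the Sc5d change of -0.45 ± 0.23 (SE) did not pass in edgeR's quasi-likelihood test (Benjamini-Hochberg adjusted p = 0.123).

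Srebf2 at CT16 was 106, 65.5, 85.8 and 78.0 CPM in WT_CT16 libraries 5 to 8 and 136, 117, 129 and 117 CPM in CryDKO_CT16 libraries 11 to 14. Its values did not overlap, yet the log2 change of 0.57 ± 0.22 (SE) did not pass (edgeR's quasi-likelihood test, Benjamini-Hochberg adjusted p = 0.073). It did pass when fitted on these 2 groups alone (0.56, adjusted p = 0.0409). The same held without library 5 (0.71, adjusted p = 0.0451), library 10 (0.57, adjusted p = 0.0330) or library 16 (0.57, adjusted p = 0.0336). Libraries 10 and 16 are of CryDKO_CT8, outside this comparison. Values of 3 members did not overlap at CT16 (Ggps1, Insig2, Srebf2), where 19.8% of tested genes did not. Scap, called at CT8, was 129.7 ± 30.2 CPM in WT_CT16 and 133 ± 14.7 CPM in CryDKO_CT16 (SD, n = 4 each), a log2 change of 0.04 ± 0.15 (SE; edgeR's quasi-likelihood test, Benjamini-Hochberg adjusted p = 0.885).

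Between dosing at CT16 and at CT8 in WT livers, Ggps1 was the 1 member of 26 that passed (3.85%, beside 2.53% of all tested genes), 1.72-fold lower at CT16. Its log2 change was -0.78 ± 0.16 (SE; edgeR's quasi-likelihood test, Benjamini-Hochberg adjusted p = 0.0301), from the library values given above, which did not overlap. The call was lost without any 1 of libraries 1, 2, 4, 5, 6 or 7, at changes from -0.70 to -0.76 and adjusted p from 0.0582 to 0.143. This comparison and that of genotype at CT8 share the WT_CT8 libraries. Scap values did not overlap either, at 168, 137, 117 and 97.0 CPM in WT_CT16 libraries 5 to 8 above 88.3 to 95.1 CPM in WT_CT8. The Scap change of 0.51 ± 0.15 (SE) did not pass (edgeR's quasi-likelihood test, Benjamini-Hochberg adjusted p = 0.0628), but it did without library 8 (0.66, adjusted p = 0.00473), without library 9 (0.54, adjusted p = 0.0494) and in DESeq2 (0.53, adjusted p = 0.0177). The count of members called was 0 or 2 under these omissions. Over all tested genes, 3580 were called without library 8 and 0 without library 4 or library 5, so the share of 2.53% also rested on single libraries. Values of 2 members did not overlap, where 12.6% of tested genes did not.

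The other 25 members did not pass the test by time in WT. Of all 26, 22 had a log2 change above 0 and 4 below (Aacs, Ggps1, Nsdhl, Pmvk), with a median of 0.22 beside -0.04 over all tested genes. Single libraries moved that median: leaving out library 1 gave 0.06 and library 5 gave 0.10, while leaving out library 4, 6 or 3 gave 0.34, 0.39 or 0.44. With scaling by library size alone these medians were -0.01 and -0.29, and 10 members changed sign. Sqle had the largest positive change and Stard4, a carrier that moves cholesterol between membranes, the next, both 0.52. Stard4 was 85.2, 95.9, 112 and 107 CPM in WT_CT8 libraries 1 to 4 and 203, 96.6, 139 and 137 CPM in WT_CT16 libraries 5 to 8. Library 6 lay inside the WT_CT8 range, and the log2 change of 0.52 ± 0.25 (SE) did not pass (edgeR's quasi-likelihood test, Benjamini-Hochberg adjusted p = 0.194).

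In the libraries labelled CryDKO, no member was called by dosing time in edgeR's quasi-likelihood test (0 of 26; 1 at an unadjusted p under 0.05), nor in DESeq2 (0) or limma voom (0). Of all tested genes, 0 (0%) passed in edgeR, with 938 at an unadjusted p under 0.05, against 13 in DESeq2 and 0 in limma voom. No member had groups without overlap (0 of 26), where 2.45% of tested genes did. Insig1 had the lowest p. Its level was 191, 367, 360.3 and 274 CPM in CryDKO_CT8 libraries 9, 10, 15 and 16 and 617, 199, 465 and 489 CPM in CryDKO_CT16 libraries 11 to 14. Library 12 was in the lower part of the CT8 range and the other 3 above that range, and the log2 change was 0.57 ± 0.26 (SE; edgeR's quasi-likelihood test, Benjamini-Hochberg adjusted p = 0.769).

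No member passed the test of whether the time difference differed between genotypes (0 of 26 in edgeR's quasi-likelihood test, 0 in DESeq2 and 0 in limma voom; 2 at an unadjusted p under 0.05 in edgeR, Ggps1 and Scap), where 0.0414% of tested genes passed. Ggps1 changed by -0.78 with time in WT and by -0.08 in CryDKO. Its interaction was 0.71 ± 0.23 (SE; edgeR's quasi-likelihood test, Benjamini-Hochberg adjusted p = 0.239), and without library 8 it was 0.85 (adjusted p = 0.0299), the 1 member then called. Of all tested genes, 568 were called without library 8, against 6 with every library. The Insig2 interaction was -1.10 ± 0.55 (SE; edgeR's quasi-likelihood test, Benjamini-Hochberg adjusted p = 0.399), so the larger genotype change at CT8 was not shown to differ from that at CT16.

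The enzymes varied widely between libraries of the same group. For Hmgcs1, WT_CT8 libraries 1 to 4 had 148, 447, 719 and 560.1 CPM, and WT_CT16 libraries 5 to 8 had 797, 198, 531 and 623 CPM. CryDKO_CT8 libraries 9, 10, 15 and 16 had 97.4, 99.7, 421 and 664 CPM, and CryDKO_CT16 libraries 11 to 14 had 397, 324, 439 and 371 CPM. Libraries 1, 6, 9 and 10 were low and the CryDKO_CT16 libraries were close together. The ratio of highest to lowest was 4.84 in WT_CT8, 4.02 in WT_CT16, 6.82 in CryDKO_CT8 and 1.35 in CryDKO_CT16. Hmgcs1 is singled out here, after its values were seen, as the member with the widest spread.

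The median SD of log2 CPM between libraries of a group was 0.56 for the 26 members, 0.30 for all tested genes and 0.23 for the 7793 tested genes at or above the level of the lowest member. Of the members, 15 were above the 75th percentile of all tested genes and 9 above the 90th. The widest were Hmgcs1 (0.98), Idi1 (0.94), which isomerises the isoprene unit, Nsdhl (0.88), which removes carbon from the sterol, Msmo1 (0.85) and Cyp51 (0.80), the lanosterol demethylase. The narrowest were Scap (0.20), Ggps1 (0.20) and Tmem97 (0.29), the last a partner of the cholesterol carrier NPC1. The SE of a genotype change was therefore 0.63 for Hmgcs1 and 0.15 for Scap, and a change of the size called for Scap could not have been told from the spread for Hmgcs1.

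**Figure D3:**
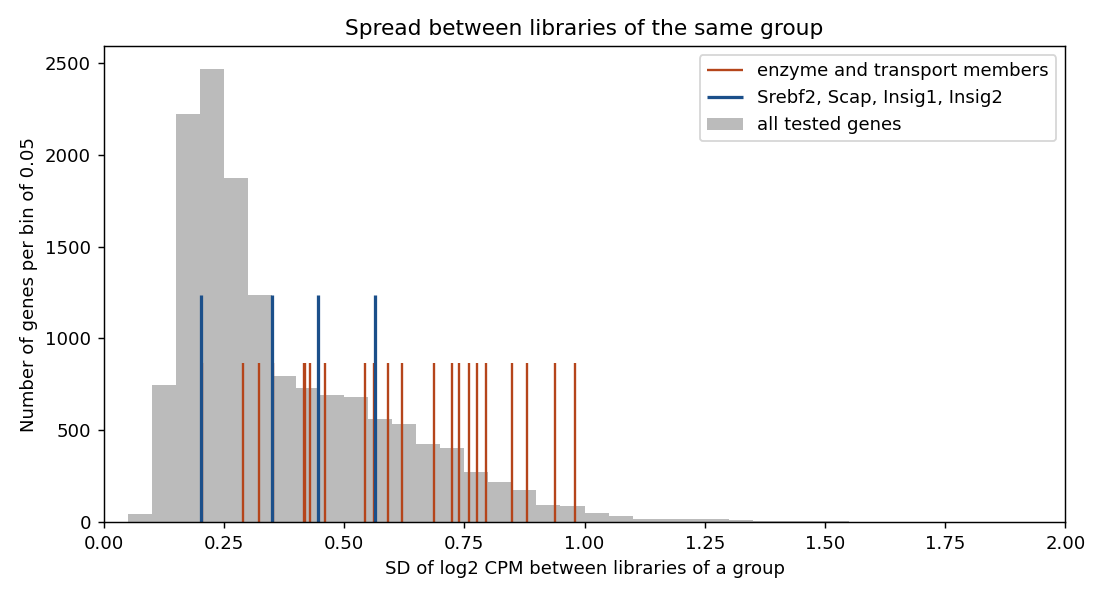
Histogram of the SD of log2 CPM between libraries of a group (x axis) over the tested genes (y axis, genes per bin), with vertical lines for the members; line height has no meaning. The members' median of 0.56 lies to the right of the bulk of the tested genes, whose median is 0.30.

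The low values fell in the same libraries from gene to gene. Library 1 had the lowest value of its group for 23 of 26 members, library 6 for 21 and library 9 for 22, while of the other tested genes 27.4%, 24.0% and 27.2% were lowest in those libraries. In CryDKO_CT16 the lowest library was 12, for 13 members, beside 24.7% of the other genes. Each library was also set against the mean of the other libraries of its group, itself left out. On the log2 scale the members' median deviation from that mean was -0.74 in library 1, -0.93 in library 6, -1.04 in library 9 and -0.18 in library 12. Medians for the other tested genes in these libraries lay between -0.01 and 0.01. Library 10 was the other low library of CryDKO_CT8, with a members' median deviation of -0.39. For 19 of the 22 enzyme and transport genes it was among the 2 lowest of its group. That count alone does not mark a low library: for library 2 of WT_CT8 it was 21 of 22, with a median deviation of 0.04. The low libraries were identified from the members' own values, so the counts are a description and no groups were formed from them.

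**Figure D4:**
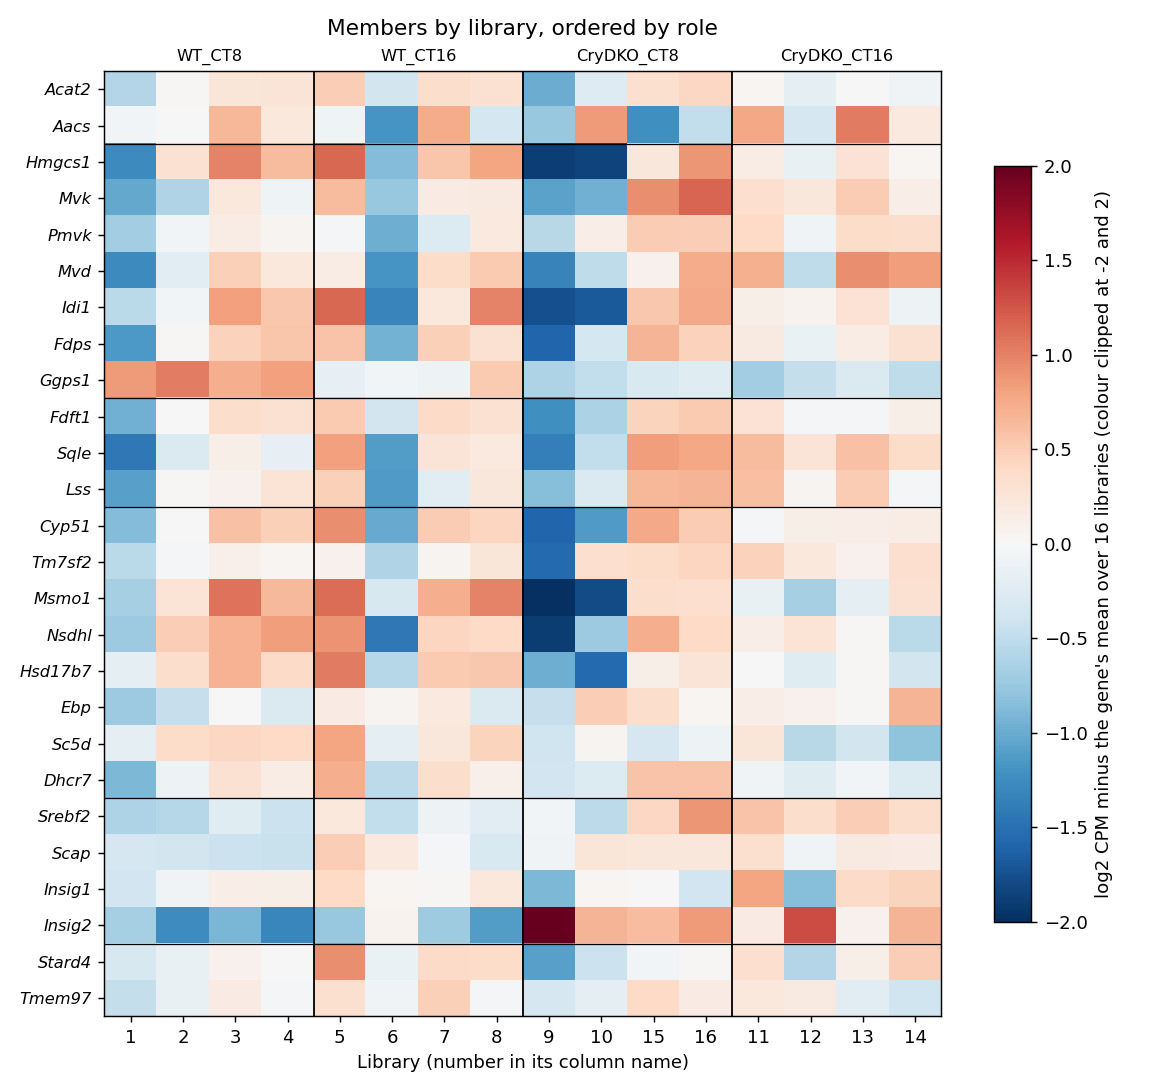
Heat map of log2 CPM minus the mean of each gene over the 16 libraries (colour, clipped at -2 and 2), with members in rows ordered by role and libraries in columns by group. Libraries 1, 6 and 9 are blue for most enzymes, Insig2 is red in library 9, and Ggps1 is red in WT_CT8.

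In each of the 4 groups, the library with the most members at their lowest was also the library with the highest Insig2. These were library 1 (55.9 CPM of Insig2), library 6 (93.4 CPM), library 9 (432 CPM) and library 12 (218 CPM). Across groups this order did not hold: libraries 1 and 6 had less Insig2 than any library labelled CryDKO. In library 10, the other low library of CryDKO_CT8, Insig2 was 143 CPM, the third of 4 in its group. The pattern was noticed in these values, so it is given with no test.

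**Figure D5:**
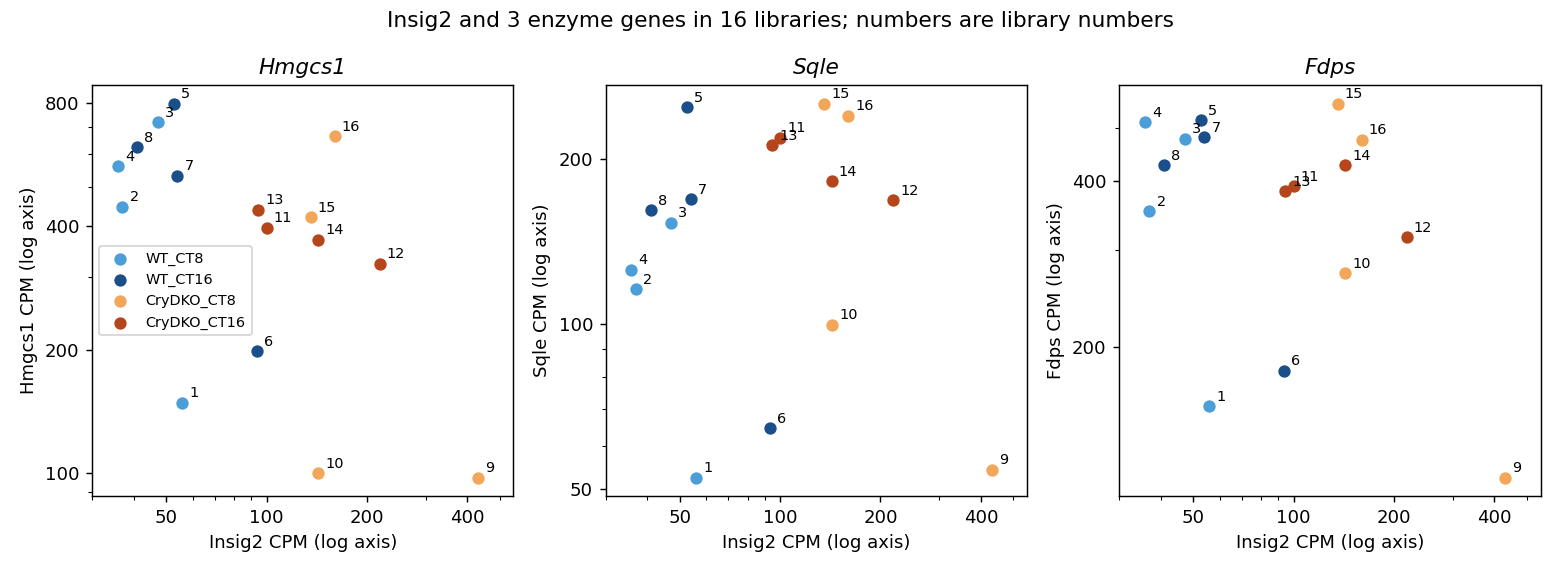
CPM of Hmgcs1, Sqle and Fdps (y axes, log scale) against CPM of Insig2 (x axis, log scale) in the 16 libraries, numbered and coloured by group. In each group the library farthest to the right on the Insig2 axis is the lowest of its group on all 3 y axes. The 3 genes were chosen after their values were seen. In CryDKO_CT16 the pattern is weaker: library 12 was lowest for 10 of 22 enzyme and transport genes, and library 14 for 8.

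Sqle, the rate-limiting monooxygenase that follows squalene, gave the same picture, with 52.5 CPM in library 1, 64.7 CPM in library 6 and 54.3 CPM in library 9, and 99.8 to 252 CPM in the other 13 libraries. Fdps, which makes farnesyl diphosphate, had 156, 181 and 116 CPM in those 3 libraries and 272 to 553 CPM in the other 13. Both genes are named after their values were seen. Srebf2 was also lowest of its group in libraries 1 and 6, but not in library 9, at 59.6, 65.5 and 88.1 CPM in the same libraries and 61.6 to 169 CPM in the others.

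Of 78 further genes of sterol and neighbouring pathways in 7 lists, 77 were tested. By genotype at CT8, 25 were higher and 7 lower in the libraries labelled CryDKO; at CT16, 8 were higher and 6 lower. Together these were 41.6% of the 77 at CT8 and 18.2% at CT16, near the 39.0% and 18.2% of all tested genes called, and nothing particular to these genes is read from the counts. With scaling by library size alone these were 8 higher and 15 lower at CT8, and 5 higher and 8 lower at CT16. Under that scaling Spring1, Ube2g2, Scarb1, Elovl5, Cyp8b1, Dhdds and Fntb were among the genes that remained higher at CT8, and Abcg5, Nfyb, Me1, Cyp7a1, Cyp7b1, Nr1h4 and Trit1 remained lower. By dosing time in WT 1 was higher (1.3% of the 77, beside 2.53% of all tested genes). This was Rnf139, an ubiquitin ligase of the endoplasmic reticulum that limits SREBP processing (log2 0.65 ± 0.15 (SE); edgeR's quasi-likelihood test, Benjamini-Hochberg adjusted p = 0.0385). Library size alone did not call Rnf139, and its call was lost without library 4 or library 5, where no gene was called. In CryDKO 0 were called by time in edgeR's quasi-likelihood test (8 at an unadjusted p under 0.05), and 0 in the interaction (13).

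Among 5 remaining enzymes and partners of the sterol pathway, 3 were higher at CT8 (60%, beside 39.0% of all tested genes). The electron donors Cyb5r3 and Por rose by 0.63 ± 0.18 and 0.60 ± 0.21 (log2, SE), and with scaling by library size alone neither was called. At CT16 only Cyb5r3 of the 5 was called (20%, beside 18.2% of all tested genes), higher by 0.72 ± 0.18 (log2, SE).

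Of 16 tested genes for SREBP processing, degradation and partner factors, 6 were higher and 1 lower at CT8 (43.8%, beside 39.0% of all tested genes). Spring1, needed for the protease that cleaves SREBPs, rose by 1.27 ± 0.22 (log2, SE), and Ube2g2, an enzyme of the ubiquitin pathway that degrades sterol enzymes, by 1.24 ± 0.21. At CT16 2 were higher and 2 lower (25%, beside 18.2%), with Spring1 at 1.26 ± 0.22, Ube2g2 at 0.89 ± 0.21, Erlin1, an INSIG partner, at -0.80 ± 0.15, and the transcription factor Sp1 at -0.55 ± 0.13 (log2, SE).

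Of 16 tested genes for uptake, export and storage of cholesterol, 7 were higher and 1 lower at CT8 (50%, beside the same 39.0%). The HDL receptor Scarb1 rose by 1.02 ± 0.19 (log2, SE), the lysosomal lipase Lipa by 0.67 ± 0.19 and the endosomal carrier Stard3 by 0.46 ± 0.13, while Abcg5, which exports sterols into bile, fell by 0.69 (SE 0.18). At CT16 Nr1h2 rose by 0.42 ± 0.13 (log2, SE), and Abcg5 fell by 0.53 (SE 0.18).

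Of 8 bile acid genes, 2 were higher and 3 lower at CT8 (62.5%, beside 39.0% of all tested genes). Cyp7a1, the rate-limiting enzyme of bile acid synthesis, was 460.3 ± 155 CPM in WT_CT8 and 128 ± 49.8 CPM in CryDKO_CT8 (SD, n = 4 each), a fall by 1.85 (SE 0.33) on the log2 scale, and at CT16 it fell by 1.16 (SE 0.33). Cyp8b1, which sets the share of cholic acid, rose by 1.12 ± 0.27 at CT8, Nr1h4 fell by 0.51 (SE 0.17) and Cyp7b1 fell by 1.59 (SE 0.55). Of 14 SREBP1 lipogenic genes, 5 were higher and 1 lower at CT8 (42.9%, beside the same 39.0%). Among them were Fads1 at 0.80 ± 0.21, Elovl5 at 1.54 ± 0.40 and Acaca at 0.86 ± 0.24, with Me1 at -0.82 ± 0.21 (log2, SE). At CT16 Acacb rose by 1.17 ± 0.28 and Pnpla3 by 3.10 ± 0.99, and Me1 fell by 0.68 (SE 0.21).

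Of 11 isoprenoid branch enzymes, 2 were higher and 1 lower at CT8 (27.3%, beside 39.0% of all tested genes). These were Dhdds at 0.79 ± 0.15, Fntb at 1.18 ± 0.28 and Trit1 at -0.49 ± 0.14 (log2, SE). At CT16, 1 was higher and 1 lower (18.2%, beside 18.2% of all tested genes), Dhdds at 0.44 ± 0.15 and Trit1 at -0.56 ± 0.14. Of 7 genes of acetyl-CoA supply and ketogenesis, 0 passed at either time in edgeR's quasi-likelihood test, with 2 at an unadjusted p under 0.05 at CT8 and 0 at CT16. All calls of these lists are from edgeR's quasi-likelihood test at a Benjamini-Hochberg adjusted p under 0.05.

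Markers of the cell types a liver sample could hold were counted in the same way, beside the 39.0% (CT8) and 18.2% (CT16) of all tested genes called. Of 8 hepatocyte markers, CryDKO libraries had 5 higher than WT at CT8 (62.5%) and 2 at CT16 (25%), with 0 lower and medians of 0.93 and 0.05 on the log2 scale. Their summed level was 56161 to 69336 CPM in WT_CT8, 60357 to 104671 in WT_CT16, 105374 to 143902 in CryDKO_CT8 and 106688 to 163170 in CryDKO_CT16. Macrophage markers were higher for 2 of 9 at CT8 (22.2%) and 4 of 9 at CT16 (44.4%), with sums of 58.4 to 85.3, 27.6 to 102.2, 69.6 to 172.1 and 107.8 to 189.3 CPM in the same order of groups. Stellate cell and fibroblast markers were higher for 4 of 9 at CT8 and 2 of 9 at CT16 (108.6 to 149.2, 73.0 to 161.3, 132.0 to 263.2 and 51.5 to 154.4 CPM), and cholangiocyte markers for 2 of 5 and 1 of 5, with 1 lower at CT16 (25.8 to 91.7, 46.4 to 76.4, 50.4 to 146.1 and 47.4 to 146.2 CPM). Endothelial markers were called for 0 of 7 at CT8 in edgeR's quasi-likelihood test (0 at an unadjusted p under 0.05) and 1 of 7 at CT16 (14.3%; 60.8 to 84.0, 29.6 to 81.7, 48.1 to 84.8 and 53.0 to 71.4 CPM). Neutrophil markers summed to at most 10.3 CPM and those of T, NK and B cells to at most 2.0 CPM in any library. Of 4 erythroid markers 2 were tested: Hbb-bs was called higher at CT8 and CT16, and Alas2 was lower at CT8 (summed levels 39.8 to 48.1, 28.3 to 50.6, 12.3 to 30.9 and 12.0 to 43.2 CPM). Hbb-bs lay near the floor, at 0 in 4 libraries and at most 0.77 CPM in any, so its calls rest on few reads. Alas2, at 11.5 to 50.6 CPM, made up nearly all of these sums. With scaling by library size alone, the CT8 counts were 3 higher and 1 lower for hepatocyte markers, 0 for macrophage, 2 higher for stellate and 1 higher for cholangiocyte markers; at CT16 they were 2 and 2 higher, 0, and 1 lower in the same order. The part of these levels in the members' changes was not tested.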

How the data were processed

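RNA was sequenced from 16 liver libraries in 4 groups of 4. The authors deposited whole-number counts of reads per gene, the unit used here; their second deposited table, of normalized values, was not used here. Per the submitters' processing notes the tools were FastQC, Trimmomatic 0.35, STAR 2.5.3, HTSeq 1.99.2 and DESeq2 with build GRCm39; the annotation and strand setting are not given in the sources used here. Groups come from the column names, which carry running library numbers.

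Of 40840 genes, 14484 passed filterByExpr. They were fitted with edgeR 4.0.16 (R 4.3.3; TMM scaling, robust quasi-likelihood fit, 1 coefficient per group over all 16 libraries), and p-values were adjusted by Benjamini-Hochberg over all tested genes, with a threshold of 0.05. The fit was tested on simulated data. Alternatives were DESeq2 1.42.0, limma 3.58.1 (voom), other scalings, filters and sample sets, and leaving out each library. Replicates differed by more than counting noise (chi-square per degree of freedom 20.2 to 136). Values in every library are given for Srebf2, Scap, Insig1, Insig2 and each member past the threshold in any comparison, filled to 8 by lowest p; of each list, up to 4 genes past the threshold per comparison are named by lowest adjusted p, and other genes are said to be named after their values were seen. The members and lists were chosen with earlier results of these data known. Promoters are from RefSeq (GRCm38.p6) and exon lengths from GENCODE M21. In that annotation, 18.3% of Fdft1 exon bases overlap Ctsb and 12.1% of Tm7sf2 exon bases overlap Vps51, so reads there are uncertain. Some genes of the lists, counted in the totals, are not reported here by name.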

Additional observations from a re-analysis of the deposited data

Results flagged for a closer look

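In 7 of 104 pairs of a member and a group (6.73%), 1 library stood apart from the other 3 by more than Dixon's 95% critical value for 4 samples, where chance gives about 1 in 20. In CryDKO_CT8 this was library 9 for Insig2, at 431.5 CPM beside 136 to 160 CPM, for Tm7sf2, a sterol reductase, at 40.8 CPM beside 151 to 161 CPM, and for Scap, at 114.5 CPM beside 139 to 141 CPM. In CryDKO_CT16 it was library 14 for Ebp, at 350.4 CPM beside 221 to 238 CPM, and library 12 for Pmvk, which encodes phosphomevalonate kinase, at 55.4 CPM beside 73.8 to 76.6 CPM. In WT_CT16 library 8 had 13.1 CPM of Ggps1 beside 8.17 to 8.89 CPM. In WT_CT8 library 1 had 265.2 CPM of Sc5d beside 392 to 403 CPM. What set these libraries apart was not tested.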

How the results depend on the processing

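No member's called change reversed under any alternative run. Ggps1 and Insig2 by genotype at CT8 stayed past the threshold in all 7 other settings and without each of the 16 libraries, at log2 changes of -1.62 to -1.17 and 1.76 to 2.49. The members called by time in WT numbered 1, and 2 in DESeq2. Leaving out each library gave 0 to 2 members called by time in WT, 0 to 0 by time in CryDKO, 3 to 6 by genotype at CT8 (6 without library 9, 3 without library 16), 0 to 4 by genotype at CT16 (0 without library 8, 1 without any 1 of libraries 7, 12 or 14, 4 without library 10) and 0 to 1 in the interaction (1 without library 8); the cause was not tested. Over all tested genes, 367 were called by time in WT, against 1563 in DESeq2, 955 in limma voom, 663 with no low count filter and 712 fitted on these groups alone. Leaving out 1 library moved that number further, to 3580 without library 8 and to 0 without library 4 or library 5. By time in CryDKO 0 were called, against 13 in DESeq2 and 2 with no filter. In the interaction 6 were called, against 135 in DESeq2, 1 in limma voom, 30 with no filter, 1 at a mean of 50 reads or more and 0 with library size alone. Without library 8 the interaction called 568. No paired analysis was possible because the columns carry running library numbers and no replicate numbers, so the replicate block was not run.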
